A study of Homo sapiens with 10 samples.

Results

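The 38 genes described here encode subunits of RNA polymerase II and the factors that bind it while it elongates a transcript. They were taken as a named list: 11 polymerase subunits, 2 DSIF subunits, SUPT6H and IWS1, 2 FACT subunits, 6 PAF1 complex subunits, 2 TFIIS genes, ELOA, 7 genes of the super elongation complex, 4 NELF subunits and SETD2. Poly(A) 3′-seq peaks with a summit in the GENCODE 44 body of a member, or up to 600 bp past its 3′ end, were assigned to it. This gave 369 peaks of the 178837 in the deposited list, and all 38 members, out of 20033 protein-coding genes, held at least 1 peak.

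Polymerase II transcribes a chromatin template, pauses soon after initiation under the joint hold of DSIF and NELF, and is released when CDK9 phosphorylates both factors and the polymerase tail. CDK12 and CDK13 phosphorylate the same tail during elongation. FACT and SPT6 take nucleosomes apart and rebuild them around the moving enzyme, the PAF1 complex stimulates elongation and histone modification, TFIIS rescues backtracked polymerase, and SETD2 places the H3K36 trimethyl mark on transcribed genes. An RNA is normally cleaved and polyadenylated behind a hexamer such as AATAAA near the end of its 3′ UTR, and cleavage within an intron yields a shortened transcript.

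The libraries came from IMR-32, an established human neuroblastoma cell line. Cells received pLKO.1 lentiviral shRNAs and puromycin selection: CDK12 sh22 and CDK12 sh98, CDK13 sh701 and CDK13 sh704, and an shRNA against GFP as control, with 2 biological replicates each and 10 libraries in all. The libraries were handled in batches of unequal quality and depth, which the labels do not assign. All 10 were reduced to the same size and pooled before the peaks were called, so the list holds 1 value per peak, and neither knockdown, replicate nor batch can be compared. PHOX2A, HAND2, GATA3 and ISL1, taken as markers of sympathetic neuroblasts, each had a terminal peak, with a highest pileup from 16 in ISL1 to 114 in PHOX2A.

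In this protocol a read begins at the 3′ end of the priming event, and reads were extended by 100 bp on the genome, so the 3′ edge of a peak marks where its most downstream reads began. In 30 of the 369 member peaks the summit lay over 100 bp from that edge, so that the reads at the summit began elsewhere in the peak. The pileup is the number of extended reads over the summit, which was recovered as a whole number from the deposited fold and p-value. It counts reads of the pooled libraries and is not scaled to RNA. Where the caller's default was kept and repeated read positions counted once, which is not stated, it levels off towards 200. Values were searched only up to 200, so none could come out higher. The highest in a protein-coding gene was 114. A peak was called terminal where its summit lay from 200 bp upstream to 600 bp downstream of the end of any annotated transcript of the gene, exonic where it lay elsewhere in an exon, and intronic otherwise. Strand was taken from the gene, since the list has none. Sequence was called A-rich where at least 7 of the 10 genomic bases downstream of the 3′ edge were A, because oligo(dT) can also anneal to such a stretch within an RNA.

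The sequences at these ends are shown first. Printed are the 30 bases that end at the 3′ edge of a terminal peak past the stop codon, for the peak with the highest pileup in each complex among those with AATAAA or ATTAAA in these bases, with that hexamer in capitals (GRCh38, strand of the gene). They show how close the hexamer lay to the edge. TCEA1 and POLR2K are not shown here, and FACT had no such peak.
POLR2A, chr17:7514590-7514619, plus strand: AATAAAgtttactaattttgaccaaaagta
SUPT5H, chr19:39476643-39476672, plus strand: cAATAAAaagaagctgtttggtctaaaagt
IWS1, chr2:127480805-127480834, minus strand: cacAATAAAatttcattctggtttttgggg
LEO1, chr15:51938024-51938053, minus strand: ttaattgtAATAAAacaatttaaaagcaag
TCEA2, chr20:64072320-64072349, plus strand: cctcattATTAAAtgtttctttttgccatc
ELOA, chr1:23762028-23762057, plus strand: aaattccatgtctaAATAAAaaacaaactc
ELL, chr19:18442665-18442694, minus strand: tttcattctccAATAAAtttcactgaactg
NELFA, chr4:1982719-1982748, minus strand: ATTAAAgtcgagcttttctaaagaaagcca
SETD2, chr3:47016418-47016447, minus strand: tcaATTAAAgaacttggcatgtgtgttccc

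Most intronic peaks lay beside other sequence. The next stretches run from 10 bases before to 20 bases after the 3′ edge of the A-rich intronic peak with the highest pileup in 4 members, with each A of the 10 bases just after the edge in capitals. They hold 7 to 10 A in those 10 bases, and the SETD2 edge lies in an exon of another annotated transcript.
MLLT3 intron 2, chr9:20506061-20506090, minus strand: aaaaaaaaaaAgAgAgAAAAaaagaaagag
AFF1 intron 2, chr4:87022203-87022232, plus strand: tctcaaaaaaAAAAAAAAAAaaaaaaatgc
SETD2 intron 8, chr3:47099890-47099919, minus strand: agactagtttAAAAAtAAAAaaggaaaaaa
AFF4 intron 5, chr5:132917697-132917726, minus strand: aaaaaaaaaaAAAAAAAAAAagaaaagaaa

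A further set had 3′ edges in coding exons. The same 30-base layout is given for the highest peak of this kind in each of 4 genes, to show the base composition at an edge inside an open reading frame. In SUPT16H and SSRP1 the summit lay over 100 bp from the edge.
CTR9, chr11:10774134-10774163, plus strand: ggagggtggtgAgAgAAAgAagaaaaagag
SUPT16H exon 13, chr14:21363070-21363099, minus strand: ggctcaactcAAtgAAgAAgcaaagaggcg
SSRP1, chr11:57326710-57326739, minus strand: agagaacaagAgcAAAAAgAagaggaggag
IWS1 exon 6, chr2:127498152-127498181, minus strand: agaagattcagAttctgAtgataacataaa

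Across the 38 genes, 90 of 369 peaks were terminal (24.4%, 95% Wilson interval 20.29% to 29.02%), 64 were exonic (17.3%, 13.8% to 21.5%) and 215 were intronic (58.3%, 53.2% to 63.2%). Over all protein-coding genes the shares were 18.8%, 10.3% and 70.9% of 162226 gene and peak pairs. The intervals cover counting error only, and peaks of a gene are not replicates. A terminal peak was present in 38 of 38 members, beside 68.7% of all protein-coding genes. In 37 members a terminal peak lay past the stop codon. The exception was POLR2I, a small zinc-binding subunit, whose only peak had a pileup of 20, a summit in its last coding exon and a 3′ edge 97 bp past the annotated end.

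**Figure D1:**
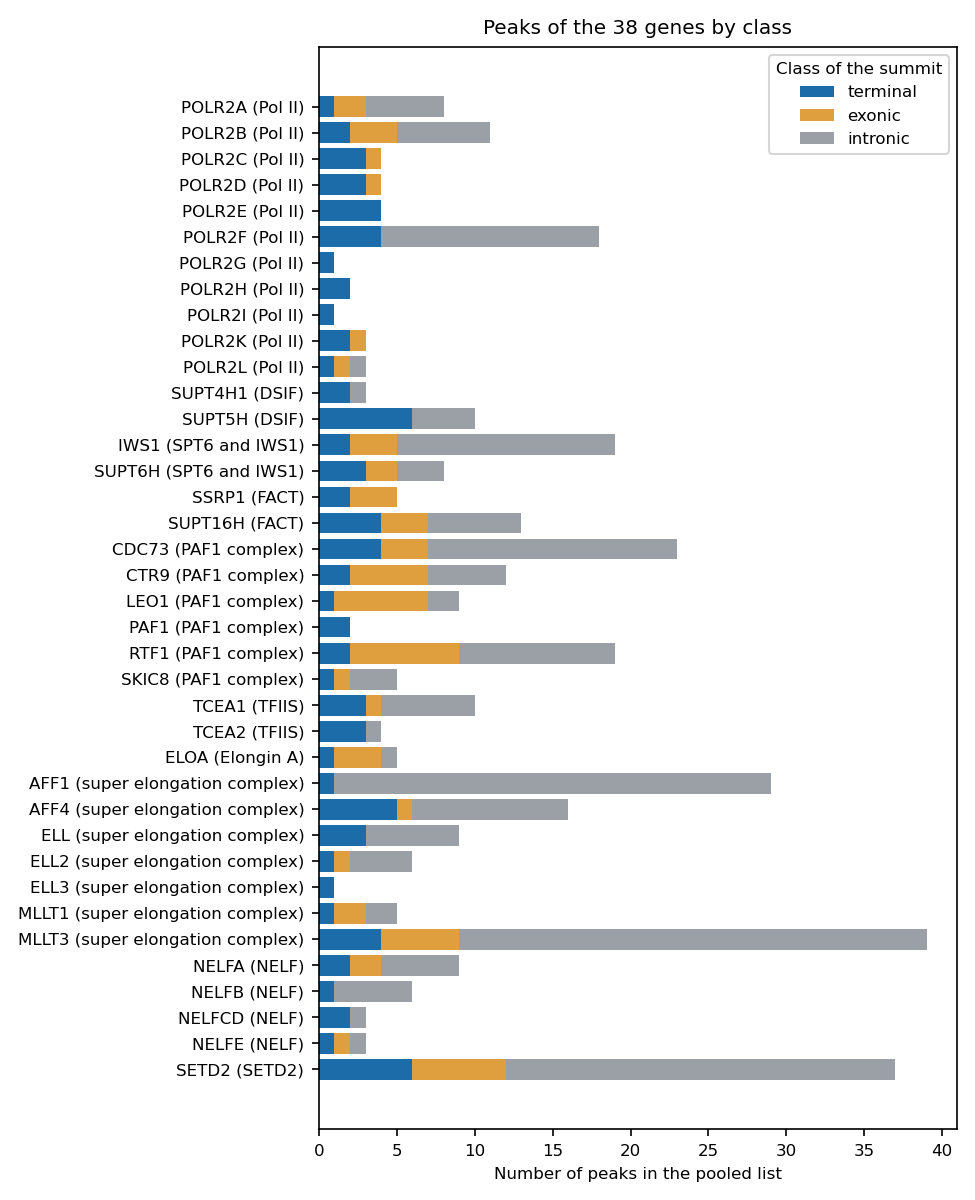
Number of peaks (horizontal axis) in each of the 38 genes (vertical axis, complex in parentheses), split by the class of the summit into terminal, exonic and intronic. MLLT3 held 39 peaks, SETD2 37 and AFF1 29, mostly intronic, whereas POLR2G, POLR2I and ELL3 held 1 peak each.

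The peak classes also differed in strength. The median pileup of the members' peaks was 20 for terminal, 13 for exonic and 8 for intronic peaks, beside 17, 13 and 8 over all protein-coding genes. Among the 149 member peaks with a pileup under 10, 83.9% were intronic, beside 86.7% over all protein-coding genes. Among the 37 with a pileup of 30 or more, 75.7% were terminal, 18.9% intronic (7 peaks) and 5.41% exonic (2 peaks), beside 66.1%, 15.0% and 18.9% over all protein-coding genes. The highest terminal pileup of a member ranged from 11 in ELL2 to 75 in POLR2C with a median of 33.5, beside a median of 23 over the 13422 protein-coding genes that had a terminal peak and an intron. The highest intronic pileup exceeded the highest terminal pileup in 5 of 38 members (13.2%), beside 15.8% of those 13422 genes. These were CTR9, IWS1, POLR2B, RTF1 and TCEA1.

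**Figure D2:**
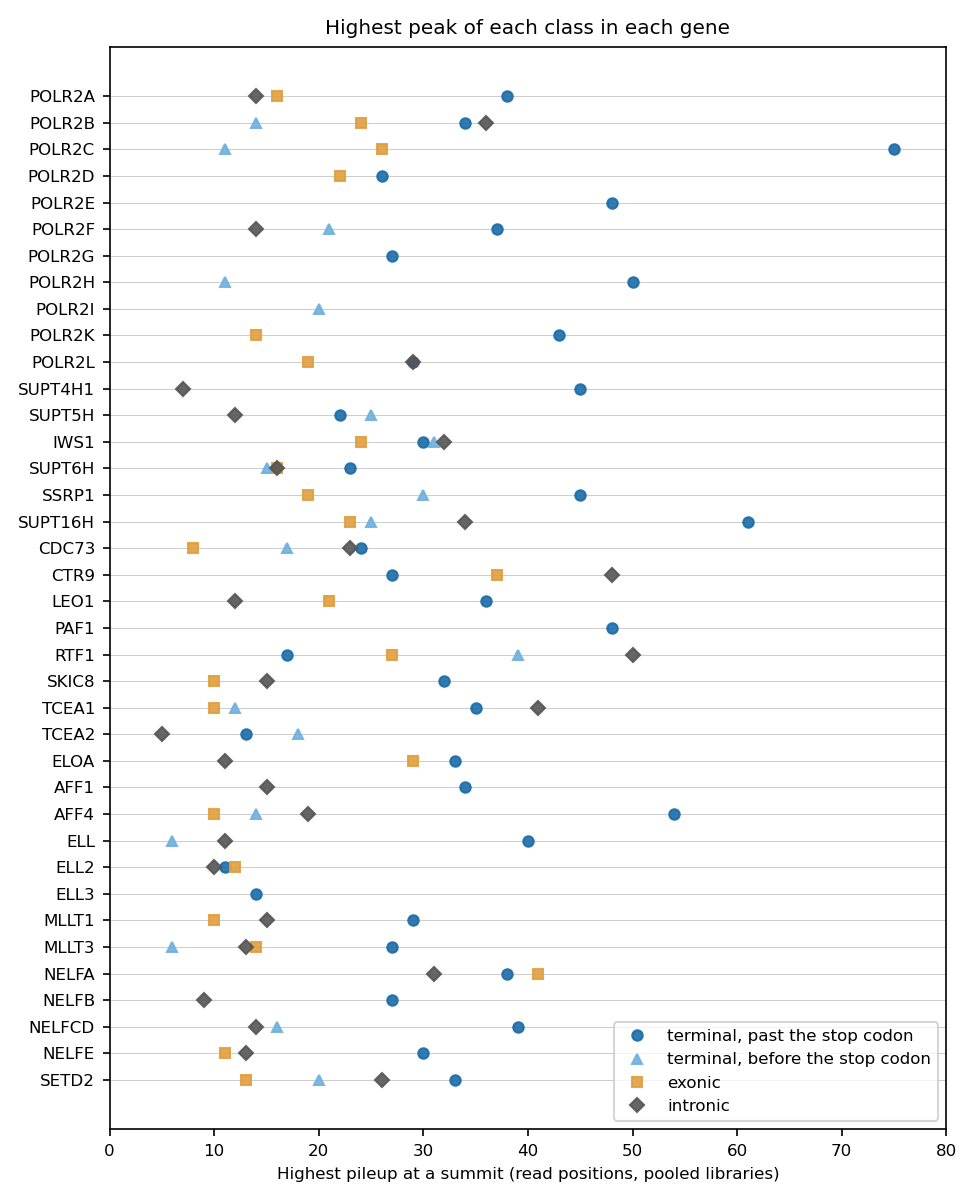
Highest pileup at a summit (horizontal axis, reads of the pooled libraries) for each class in each gene (vertical axis), with terminal peaks split by whether the summit lay past or before the stop codon. POLR2C stood highest at 75 past its stop codon, and RTF1 was the member whose end past the stop codon (17) lay furthest below its intronic peak (50).

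Intronic peaks numbered 215 in 28 of the 38 members (73.7%, beside 77.3% of the 13422 genes), and the other 10 members, POLR2C, POLR2D, POLR2E, POLR2G, POLR2H, POLR2I, POLR2K, SSRP1, PAF1 and ELL3, had none. Their number followed gene length. The 12 members under 10 kb held 3 intronic peaks in all, the 11 members of 10 to 50 kb held 31, the 11 members of 50 to 100 kb held 82, and the 4 members over 100 kb (CDC73, SETD2, AFF1 and MLLT3) held 99. The members' density was 1.12 intronic peaks per 10 kb, beside 1.02 over the 13422 genes. Each member was therefore set beside the 100 protein-coding genes nearest to it in length. It held more intronic peaks than their median in 12 of 38 members (31.6%, beside 39.9% of all 13422 genes), fewer in 10 (26.3%, beside 36.2%) and the same number in 16. Summed over the members, the medians came to 208.5 and the observed count was 215.

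**Figure D3:**
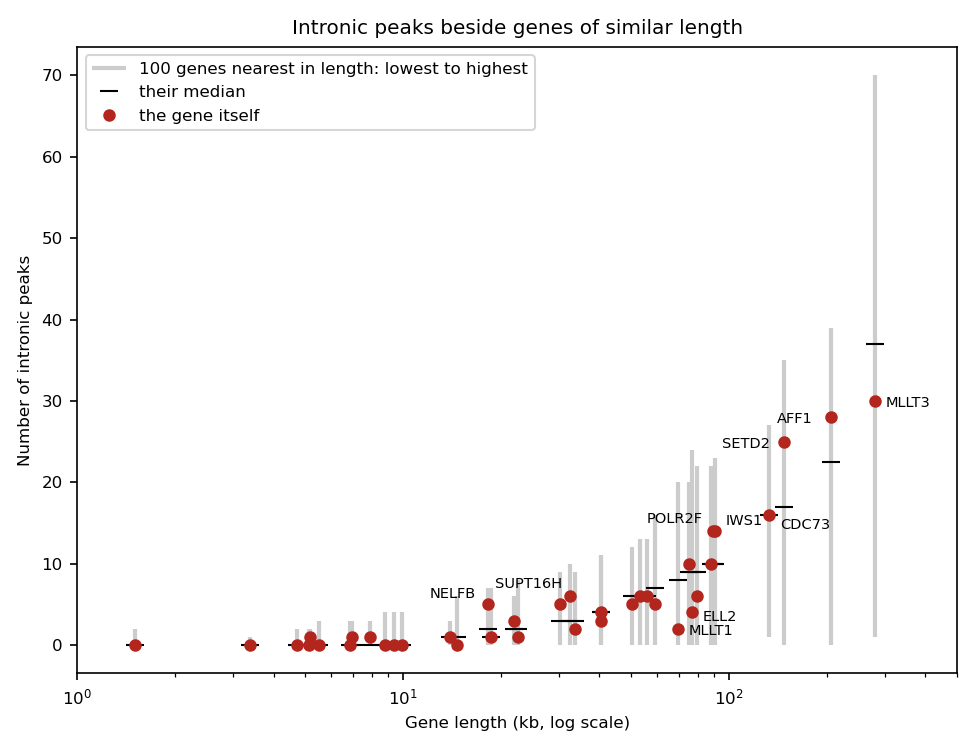
Number of intronic peaks (vertical axis) against gene length in kb (horizontal axis, log scale) for the 38 genes, with the lowest, median and highest count among the 100 protein-coding genes nearest in length. SETD2 (25) lay above its median of 17, MLLT3 (30) below its median of 37, and all members lay within the range of their 100 neighbours.

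SETD2 had the largest excess. Its 25 intronic peaks exceeded the median of 17 by 8, and 20 of its 100 neighbours held at least as many. AFF1 held 28 beside 22.5, IWS1 14 beside 10 and POLR2F 14 beside 10, with 25, 20 and 24 neighbours holding at least as many. The largest shortfalls were in MLLT3 (30 beside 37), MLLT1 (2 beside 8, where 93 of 100 neighbours held at least as many) and ELL2 (4 beside 9). NELFB, chosen after its values were seen, held 5 intronic peaks beside a median of 2, and 4 of its 100 neighbours held at least as many.

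The 3′ edges of the intronic peaks lay beside A-rich sequence in 149 of 215 cases (69.3%, 62.8% to 75.1%), and 49 (22.8%) were followed by 10 A in 10 bases. Over all protein-coding genes 66.8% of 115058 intronic peaks were A-rich. The share was 20 of 64 (31.3%) for the members' exonic peaks, beside 31.5%, and 21 of 90 (23.3%) for their terminal peaks, beside 19.98%. Among the terminal peaks it was 3 of 56 (5.36%) past the stop codon and 18 of 34 (52.9%) before it. Read on the opposite strand, 11 of the 215 intronic peaks (5.12%) had A-rich sequence past their other edge. AATAAA or ATTAAA stood 10 to 40 bp upstream of the 3′ edge at 35 of 90 terminal peaks (38.9%, 29.5% to 49.2%). Over all protein-coding genes the share was 48.2% of terminal peaks, which lies within that interval. The members' 35 were 33 of the 56 past the stop codon (58.9%, 45.9% to 70.8%) and 2 of the 34 before it (5.88%). This split was not made over all protein-coding genes. At 4 of the 56 (7.14%) the hexamer was found on the opposite strand. At the intronic peaks it stood there in 18 of 215 (8.37%, 5.36% to 12.8%). Over all protein-coding genes the share was 14.0%, which lies above that interval. On the opposite strand it was found at 12 of 215 (5.58%). The 12 hexamers taken as poly(A) signals (AATAAA or ATTAAA or AATACA or AATAGA or AATATA or AATGAA or AAGAAA or ACTAAA or AGTAAA or CATAAA or GATAAA or TATAAA) were searched on the strand of the gene within 100 bp upstream, and at least 1 was present at 61 of 90 terminal peaks (67.8%), beside 77.7% of the terminal peaks of all protein-coding genes. The interval of the 67.8% was 57.6% to 76.5%, and the 77.7% lies above it. Whether reads beside A-rich sequence began at a poly(A) tail or at the encoded A was not tested.

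**Figure D4:**
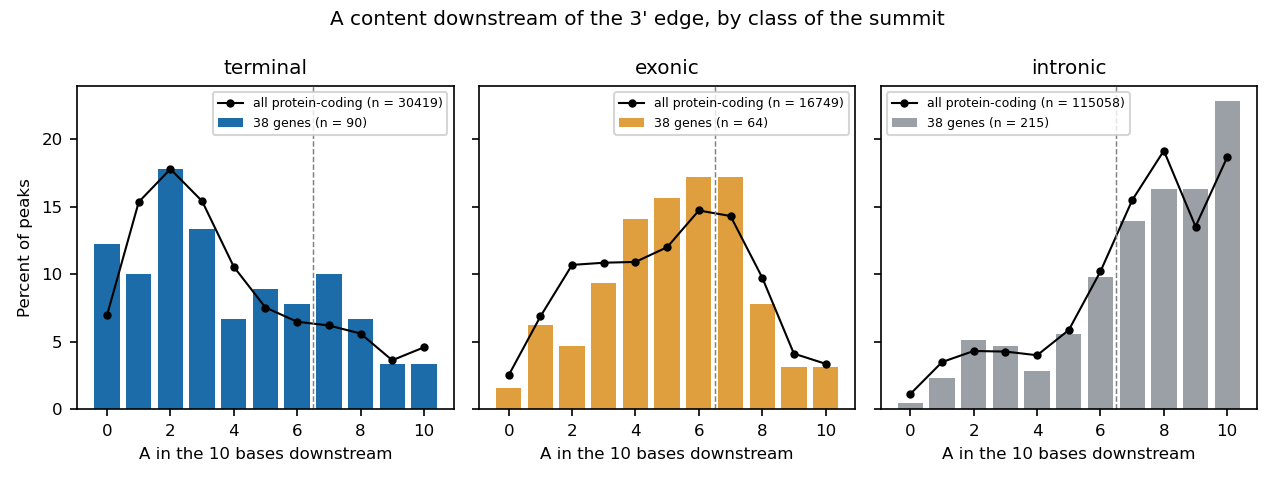
Percent of peaks (vertical axis) by the number of A in the 10 genomic bases downstream of the 3′ edge (horizontal axis), for terminal, exonic and intronic peaks. Bars are the 38 genes, black points and lines all protein-coding genes, and the dashed line marks the limit for A-rich. Intronic peaks of the members reached 22.8% at 10 A, and terminal peaks reached 3.33% there.

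The 3′ edge lay in the coding sequence of the canonical transcript for 63 of the 369 member peaks (17.1%, 13.6% to 21.3%), beside 6.40% of the peaks of all protein-coding genes (10384 of 162226). At least 1 such peak was found in 18 of 38 members (47.4%, 32.5% to 62.7%), beside 33.7% of the 13422 genes. The members' median highest terminal pileup was 33.5, beside 23, and their median coding sequence was 1690 bases, beside 1419. At a highest terminal pileup under 20, 0 of 3 members held such a peak beside 21.6% of genes. At 20 to 29, 5 of 11 members held such a peak beside 37.4% of genes, at 30 to 39 it was 9 of 14 beside 44.02%, and at 40 or more it was 4 of 10 beside 46.6%. No test of this difference was made. Of the 63 peaks, 25 (39.7%) were A-rich, beside 39.7% of such peaks in all genes. AATAAA or ATTAAA stood 10 to 40 bp upstream at 2 of the 63 (3.17%), beside 5.54% of such peaks in all genes. SUPT16H and SETD2 held 7 of the 63 each, LEO1 6, and RTF1, IWS1 and TCEA1 5 each.

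Because reads were extended on the genome and not along the spliced RNA, a summit can fall in an intron although reads began in an exon. The 3′ edge lay in an exon for 15 of the 215 intronic peaks (6.98%, beside 2.46% of intronic peaks of all protein-coding genes), in 10 members. It lay in canonical coding sequence for 12 of them, in the exon after the intron of the summit for 11, and for 3 (in POLR2B, SETD2 and IWS1) only in an exon of another transcript. Among the 14 intronic member peaks with a pileup of at least 20, 6 had their 3′ edge in an exon (42.9%, 21.4% to 67.4%), beside 7.81% of 5366 such peaks in all protein-coding genes. They included the strongest intronic peaks of RTF1, TCEA1, SUPT16H, IWS1 and POLR2B. The summit lay at most 100 bp from the edge in 11 of the 15, among them the strongest intronic peaks of RTF1, TCEA1 and IWS1. It lay further away in the other 4, at 241 bp and 153 bp in SUPT16H, 214 bp in POLR2B and 182 bp in IWS1 intron 4, so that the reads at those summits did not begin at the edge.

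POLR2A, the largest subunit and the carrier of the phosphorylated tail, spans 30.25 kb on chromosome 17 and held 8 peaks. Its single terminal peak had a pileup of 38 and a 3′ edge 3 bp past the annotated end. Its 5 intronic peaks, beside a neighbour median of 3, had pileups of 9 to 14 and were all A-rich. The highest of them, with its summit in intron 23, had its 3′ edge 25 bp into exon 24, in coding sequence. An exonic peak with a pileup of 16 lay in coding sequence with 64.0% of the coding bases upstream. The intervals of 2 of the intronic peaks, in introns 19 and 20, matched transcripts of other genes at 97.8% and 95.1% identity, and whether reads there were unique to POLR2A was not tested.

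POLR2B, the second-largest subunit, ended at a pileup of 34 with its 3′ edge 284 bp past the nearest annotated end. Its highest peak, at 36, lay upstream of the canonical start and was counted as intronic. That peak covered chr4:56978095-56978712, had 1 A downstream, AATAAA or ATTAAA 34 bp upstream, and a 3′ edge in an exon of another annotated POLR2B transcript. The other 5 intronic peaks had pileups of 10 to 18. An exonic peak with a pileup of 24 stood in coding sequence, with 27.0% of the coding bases upstream, AATAAA or ATTAAA 11 bp upstream of its edge and 5 A downstream.

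POLR2C, the partner of POLR2J in assembly of the core enzyme, had the highest terminal pileup among the members (75, −log10 q 86.0), and the summit also lay in the end window of DOK4, which is transcribed from the opposite strand. The highest terminal pileup was 50 in POLR2H, 48 in POLR2E, 43 in POLR2K and 37 in POLR2F. It was 29 in POLR2L, 27 in POLR2G, 26 in POLR2D and 20 in POLR2I. Several subunits used more than 1 end. POLR2E had 4 terminal peaks past the stop codon, of which the most proximal was the strongest (48) and the most distal had a pileup of 25. POLR2D had 3, with pileups of 21, 26 and 20, each with AATAAA or ATTAAA 19 to 23 bp upstream, and POLR2K had 2, with pileups of 17 and 43. The summits of the POLR2D peaks of 26 and 20 also lay in RPS26P19 on the same strand, or up to 600 bp past its end. The ends of POLR2E (most distal), POLR2I (OVOL3) and POLR2L (CD151) also lay in the end window of a gene on the opposite strand, and reads from opposite strands cannot be told apart in this list.

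POLR2F, a subunit shared by the nuclear polymerases, is annotated over 89.31 kb, but 12 of its 14 intronic peaks lay past the end of the canonical transcript. Inside the canonical transcript it held 2 intronic peaks, both in intron 3, with pileups of 8 and 10 and 9 A downstream. Its main end, at a pileup of 37, had a 3′ edge 17 bp past the nearest annotated end and AATAAA or ATTAAA 39 bp upstream. Among the distal peaks, 3 had fewer than 7 A downstream and the hexamer 10 to 40 bp upstream, with pileups of 10, 14 and 6. With only the canonical transcript, POLR2F had 3 intronic peaks and no terminal peak, and the third was a peak in intron 4 (pileup 21) that was otherwise counted as terminal.

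DSIF, which holds paused polymerase and later moves with it, is formed by SUPT4H1 and SUPT5H. SUPT4H1 ended at 2 sites in its 3′ UTR with pileups of 45 and, further downstream, 37. SUPT5H had 6 terminal peaks, and the end past the stop codon had a pileup of 22. A higher terminal peak, at 25, lay in coding sequence with 2.79% of the coding bases upstream, near the end of an annotated short transcript and with 5 A downstream. All 4 intronic peaks of SUPT5H lay upstream of the canonical start, with pileups of 7 to 12 and 2 or 3 A downstream. Read on the opposite strand, 2 of them had 10 A, and the interval of 1 of these matched transcripts of 39 other genes.

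SUPT6H and IWS1 bind each other and the polymerase. SUPT6H, the histone chaperone, held 3 intronic peaks (beside a median of 4), all A-rich, and ended in its 3′ UTR at pileups of 9 and 23. IWS1 held 14 intronic peaks with pileups from 5 to 32 and a median of 9. Of these, 8 had fewer than 7 A downstream, more than in any other member, and 5 of the 8 had AATAAA or ATTAAA 10 to 40 bp upstream. The canonical transcript of IWS1 ends at a peak with a pileup of 30, and 6 intronic peaks lay past it in a longer annotated body. The highest, at 32, had its summit in intron 5, its 3′ edge 66 bp into exon 6 and 2 A downstream. A terminal peak of 31 lay in coding sequence, 44.2% of which was upstream, with 6 A downstream.

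FACT, a dimer of SUPT16H and SSRP1, moves histones aside. SUPT16H had the second-highest terminal pileup of all members (61, in the end window of RPGRIP1 on the opposite strand) and 6 intronic peaks beside a median of 3. The highest of these, at 34, covered chr14:21363090-21363550, with its summit in intron 11 and its 3′ edge 60 bp into exon 13. The intronic peaks in introns 25 and 3, with pileups of 15 and 10, also had their 3′ edge in coding sequence, in exons 26 and 4. A terminal peak of 25 near its start, with 7.32% of the coding sequence upstream, matched the processed pseudogene SUPT16HP1 at 95.8% identity. SSRP1 ended at 45 and held no intronic peak. Its other terminal peak, at 30, and 2 exonic peaks, at 17 and 18, had their 3′ edges in coding sequence, with 78.9% to 88.0% of the coding bases upstream.

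The PAF1 complex held 70 peaks in 6 genes: 12 terminal, 22 exonic and 36 intronic. PAF1 itself had 2 terminal peaks, of 48 and 18, and no other. Both also lay in the end window of SAMD4B on the opposite strand. SKIC8 ended at 32 and held 3 intronic peaks, all A-rich, beside a median of 2. CDC73 had 16 intronic peaks beside a median of 16, of which 8 lay in intron 10. Their pileups ran from 5 to 23, and the highest had 2 A downstream and lay in a stretch shared with B3GALT2 on the opposite strand. Another of them, with a pileup of 5, had 4 A downstream and AATAAA or ATTAAA 26 bp upstream.

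RTF1, which joins the complex to histone ubiquitylation, held higher peaks inside its body than at its own 3′ end. At the end of the 3′ UTR the pileup was 17, and 4 exonic peaks within the 3′ UTR had pileups of 27, 27, 15 and 22. The highest peak, at 50 with a −log10 q of 66.2, covered chr15:41464682-41464848, with the summit in intron 4 and the 3′ edge 78 bp into exon 5, where 8 of the 10 following bases were A and 31.1% of the coding sequence lay upstream. The next, at 39, had its summit in intron 2, its 3′ edge in coding sequence 3 bp from the end of an annotated short transcript, AATAAA or ATTAAA 30 bp upstream and 7 A downstream. Neither interval matched a transcript of another gene. The last bases before the edge of the second peak, with the hexamer in capitals, show a purine-rich coding stretch.
RTF1 exon 3, chr15:41452916-41452945, plus strand: AATAAAaataagaagaaaggaaaagccaga

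CTR9, the scaffold of the complex, and LEO1 carried many exonic peaks. CTR9 had 4 peaks with summits in coding sequence and pileups of 10, 13, 21 and 37, and the end of its canonical 3′ UTR had a pileup of 20. Its highest peak, 48, lay past the canonical end inside EIF4G2, which ends there on the opposite strand. LEO1 ended at 36, and 5 of its peaks had summits in coding sequence with pileups of 7 to 16. Its 2 intronic peaks compared with a median of 3.

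TFIIS is encoded by TCEA1 and TCEA2. TCEA1 held 6 intronic peaks, as did its median neighbour, and ended at 35. Its highest peak, 41, had its summit in intron 6, its 3′ edge 71 bp into exon 7 and 6 A downstream, with 57.9% of the coding sequence upstream. TCEA2 ended at 13 past its stop codon and at 18 at the end of an annotated transcript within intron 1, and held 1 intronic peak with a pileup of 5. ELOA, the active subunit of Elongin, ended at 33, with a second 3′ UTR peak of 29 lying 2116 bp before the end and AATAAA or ATTAAA 34 bp upstream of it. That second peak also lay in the end window of ELOA-AS1 on the opposite strand.

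The super elongation complex, which carries CDK9 to paused polymerase, held 80 of the 215 intronic peaks in 7 genes, and 64 of the 80 (95% Wilson interval 70.0% to 87.3%) were A-rich. AFF1 and AFF4 are its scaffolds. AFF1 held 28 intronic peaks with pileups of 3 to 15 and a median of 6, and ended at a single peak of 34. Of these, 13 lay in intron 2 and 8 in intron 4, so that 21 of 28 stood where at most 28.98% of the coding sequence was upstream. The highest, at 15, had 1 A downstream on the strand of AFF1 and 9 A on the opposite strand, where TECRP1 is annotated, and its interval matched TECR at 100%. AFF4 ended at 54 and held 10 intronic peaks beside a median of 10. Their pileups reached 19, and 2 of them had fewer than 7 A downstream with AATAAA or ATTAAA 36 bp and 10 bp upstream.

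MLLT3 and MLLT1, readers of acylated histones in the same complex, differed in number. MLLT3, the longest member at 280.8 kb, held 30 intronic peaks of which 20 lay in intron 2, with pileups of 4 to 13. None of the 30 combined fewer than 7 A with AATAAA or ATTAAA 10 to 40 bp upstream. Its 3′ UTR held 7 peaks in all, the highest at 27. MLLT1 ended at 29 and held 2 intronic peaks, of 5 and 15, in 69.59 kb. Among the ELL elongation factors, ELL ended at 40 with 6 intronic peaks beside a median of 9, ELL2 at 11 with 4 beside 9, and ELL3 had 1 peak, at 14, shared with the end window of PDIA3 on the opposite strand.

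NELF, the pausing complex, held 12 intronic peaks in 4 genes. NELFB, NELFCD and NELFE ended at 27, 39 and 30. The NELFCD and NELFE peaks also lay in the end windows of CTSZ and CFB on the opposite strand. NELFB's 5 intronic peaks lay in introns 4 and 10 with pileups of 7 to 9, and 2 were A-rich. NELFA ended at 35 at its annotated end, at 38 beyond it and at 41 within its 3′ UTR, and NSD2 ends in the window of the first and second of these on the opposite strand. Its strongest intronic peak, with a pileup of 31, lay in intron 1 with 3 A downstream, no hexamer among the 12 within 100 bp and 6 A on the opposite strand.

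SETD2 held 37 peaks in 147.7 kb, second only to MLLT3 with 39. It ended at 33, with AATAAA or ATTAAA 27 bp upstream, and at 18 in a terminal peak upstream of it. Its 25 intronic peaks fell in 13 of its 20 introns, with pileups of 5 to 26 and a median of 9. Of these, 18 were A-rich (72.0%), and none of the other 7 had AATAAA or ATTAAA 10 to 40 bp upstream. The highest, at 26, lay in intron 1 with 5 A downstream, where 0.923% of the coding sequence was upstream. In its long exon 3, 4 peaks with pileups of 11 to 20 lay where 35.2% to 56.8% of the coding sequence was upstream.

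**Figure D5:**
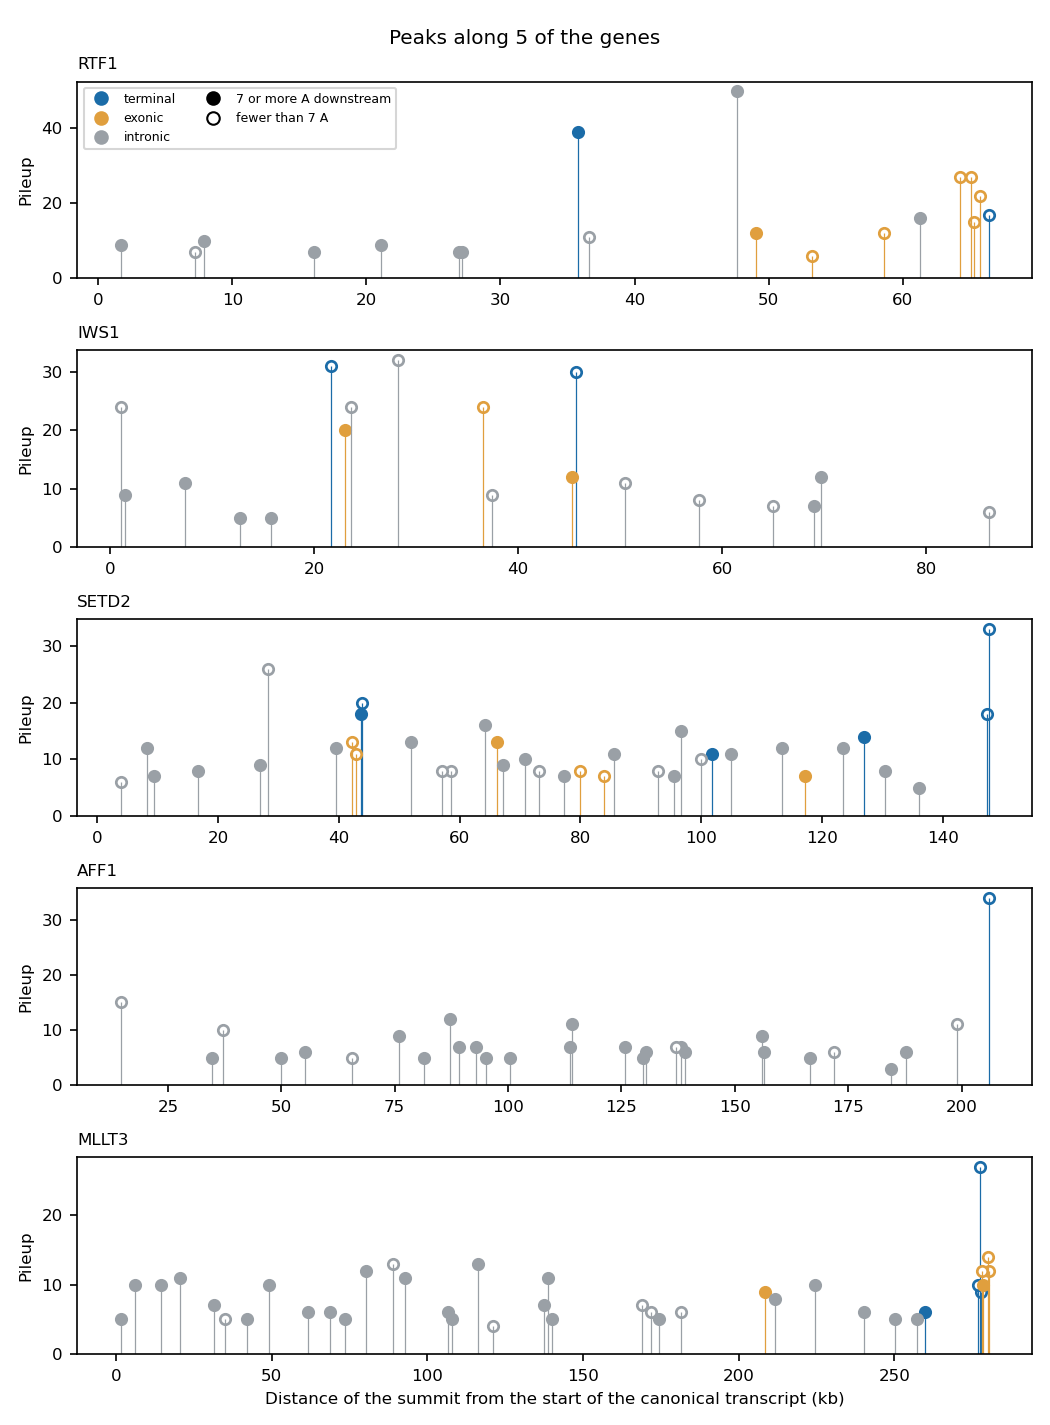
Pileup at the summit (vertical axis) against the distance of the summit from the start of the canonical transcript in kb (horizontal axis) for RTF1, IWS1, SETD2, AFF1 and MLLT3. Filled points have 7 or more A in the 10 bases downstream and open points fewer. RTF1 showed its highest peak (50) well before its 3′ end (17), whereas in AFF1 the 3′ end was highest (34). In MLLT3 the highest peak (27) lay in the 3′ UTR and was terminal only by an annotated transcript other than the canonical one.

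Of the 215 intronic peaks, 186 lay in introns of the canonical transcripts, 22 past their ends and 7 upstream of their starts. Intron 1 held 36 of the 186 (19.4%, 14.3% to 25.6%), beside 18.4% of the summed canonical intron length. The median share of the coding sequence upstream was 26.0%, with 50 peaks under 10%, 75 from 10% to 50% and 61 at 50% or more. Fewer than 7 A together with AATAAA or ATTAAA 10 to 40 bp upstream was found at 13 of the 66 A-poor intronic peaks. They lay in CDC73, POLR2B, POLR2F, IWS1, AFF1 and AFF4. The share of 13 in 66 was not computed over all protein-coding genes. Of the 13, 6 lay in introns of the canonical transcript. The bases before the edge are given for the highest such peak of 3 members, to set beside the terminal ones. The IWS1 edge lies in an exon of another annotated transcript, and its summit lay 182 bp from that edge, so the reads at the summit began elsewhere.
IWS1 intron 4, chr2:127502696-127502725, minus strand: gtaggAATAAAcaattatgatgtattcaag
POLR2F past the canonical end, chr22:38009960-38009989, plus strand: acaAATAAAgctcctatgaacattcatgta
CDC73 intron 10, chr1:193162901-193162930, plus strand: ctaaAATAAAgcagctttttgatctttcag

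The summit of 73 member peaks (19.8%) also lay in another annotated gene, in 66 cases on the opposite strand, and at 11 of the 38 strongest terminal peaks a gene on the opposite strand ended in the same window. The intervals of 20 peaks (5.42%), 18 of them intronic, matched transcripts of other genes. None of these shares was computed over all protein-coding genes. A further 28 genes of the same pathway, among them CDK9, CCNT1 and HEXIM1, were described as a list. All 28 had a terminal peak, beside 68.7% of all protein-coding genes. Of the 28, 21 had intronic peaks, beside 77.3% of the 13422 genes with an intron and a terminal peak. These intronic peaks numbered 283. Of the 27 that could be set beside genes of similar length, 10 held more than the median of their 100 neighbours and 11 fewer. Over the 13422 genes these shares were 39.9% and 36.2%. Of the 283 intronic peaks, 201 (71.0%) were A-rich, beside 66.8% over all protein-coding genes.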

How the data were processed

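Of the 10 libraries only the pooled peak list was used. The authors trimmed the reads, mapped them to GRCh38 with STAR 2.5.1b, downsampled the libraries to the smallest, merged them and called peaks with MACS2 2.1.1. The paper then dropped peaks with no hexamer and a downstream stretch of 25 A (at most 3 mismatches). The list used here still held 13 such peaks among the members' 369. At intronic peaks it was 12 of 215 (5.58%), beside 6.94% over all protein-coding genes. Without the 13, 57.02% of the members' peaks were intronic. The deposited fold is a ratio, the summit's pileup over that of the surrounding background, and the deposited −log10 p-values and q-values belong to that pileup. The deposited score is a display value and was not used, and peak widths carry no count per library, so depth per library is unknown. The pileup was recovered from fold and p-value for every peak (largest miss 0.000168 in −log10 p). The reference genome and GENCODE 44 share the build of the list. Members, lists and limits were chosen with earlier results of these data known. Named are the highest terminal pileup per complex, members with more than 2 or with no terminal peak, the 5 with the most intronic peaks, the 3 largest and 3 smallest differences from neighbours, and members with a coding peak or an A-poor intronic peak behind a core hexamer. "Similar length" means the 100 protein-coding genes nearest in length with an intron and a terminal peak. The canonical transcript gave intron numbers and coding shares. Peak intervals were aligned to GENCODE transcripts with BLAST 2.17.0 (at least 95% identity over 80% of the interval). Steps recovered all of 4652 simulated pileups and 1200 simulated classes. No test was run, since no value per library exists, and intervals are 95% Wilson intervals. Python 3.11.15 with numpy 2.4.6, pandas 2.3.3, scipy 1.17.1 and matplotlib 3.10.9 was used. Alternatives changed the q-value limit, the position, the end window, the transcripts, the limit on A, the hexamers, the neighbours and, added after seeing the data, the 3′ edge and the sequence match. Some markers and sequences are not reported here.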

Additional observations from a re-analysis of the deposited data

How the results depend on the processing

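No paired analysis was possible because the 10 libraries enter as 1 pooled list with no value per library, so leaving out a library could not be tried either. Over the alternatives 32 values moved by less than their counting interval or, for counts, by at most 1.5 times, and 13 moved further. The intronic share of the members' peaks, 58.27%, was 51.23% at a −log10 q of at least 5, 19.23% at 20 or more, 65.77% with 1 transcript per gene and 63.51% for summits in no other gene. The terminal share, 24.39%, was 29.47% and 71.15% at those limits on q, 18.31% with a window of 100 bp on each side and 10.42% with 1 transcript per gene. The A-rich share of intronic peaks, 69.3%, was 79.07% with a limit of 6 A, 55.35% with 8 A, and 3.256% when counted from the summit in place of the 3′ edge. The share of terminal peaks with a hexamer, 67.78%, was 33.33% from the summit and 50% with AATAAA or ATTAAA only. The causes were not tested. Members above the median of their neighbours numbered 12 of 38 (31.6%), beside 39.9% of the 13422 genes, and ranged from 12 to 18. The 18 of 38 arose when neighbours could lack a terminal peak, beside 38.7% of 18912 genes. With the 20 nearest genes it was 16 of 38 beside 41.0%. In these 2 settings the members' share lay above that of all genes. In the other alternatives it was 12 or 13 beside 35.3% to 39.9%, and lay below. Members with a terminal peak numbered 38 and ranged from 32 to 38. With 1 transcript per gene CDC73, MLLT3, POLR2F and SUPT6H had no terminal peak. The intervals cover counting error only, and weak peaks rest on few reads of pooled libraries whose depths are unknown.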
